A study of Homo sapiens with 12 samples.

Results

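Late-numbered microRNAs (miRNAs), here the names from miR-1001 to miR-5000, were measured in HEK293T cells after ERI2 siRNA or control siRNA. Members were the names in that range with at least 300 raw counts summed over all 6 miRNA libraries, after 11 numbers (19 names) set aside by the selection were left out. The range held 996 names, of which 752 stayed under 300 counts and 225 became members, out of 2588 names in the whole table. The summed counts that chose the members are a description and are not tested here. The sum ran over both groups alike, yet a name with more counts in the ERI2 siRNA libraries reached it more easily. miR-4443, miR-4486 and miR-4640-5p stood just inside it with 300, 301 and 302 counts. miR-1273h-3p, miR-3622a-5p and miR-3622b-3p stood just outside with 296, 294 and 290.

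The ERI2 siRNA group and the control siRNA group each had 3 miRNA-seq and 3 RNA-seq libraries, 12 in all. HEK293T is a line derived from human embryonic kidney that expresses the large T antigen of a polyomavirus. All cells received siRNA at 50 nM in 2 transfections 48 hours apart, with harvest 72 hours past the second one. The label names HEK293T, the growth protocol names HEK293, and the treatment text also mentions ERI-1 siRNAs, which label no library. A pool or single sequence of siRNA, a further ERI2 siRNA and a rescue are not described in the sources used here, and neither is whether replicates were separate cultures, so the spread behind each p-value is that between libraries and may be technical.

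miRNAs are short RNAs cut from hairpin precursors by Drosha and Dicer and loaded into Argonaute, where bases 2 to 8, the seed, pair with target mRNAs. A hairpin can give a 5p and a 3p product from its arms. Names are numbered roughly in order of discovery. The early numbers hold most of the abundant, conserved families, whereas many later numbers come from deep sequencing, are scarce, are limited to primates, or overlap tRNA, small nucleolar RNA, repeat or short intron sequences. ERI2 belongs to an exonuclease family with ERI1 and ERI3, and ERI1 is known to trim the ends of small RNAs and of histone mRNA.

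The members that carry the main contrast are printed from RefSeq (GRCh38.p14), 5′ to 3′, with the seed in capitals. RefSeq held a mature sequence for 196 of the 225. The first set holds abundant members, the second members lower under both scalings used here, the third members with large or firm rises.
miR-4465: cUCAAGUAgucugaccagggga
miR-4634: cGGCGCGAccggcccgggg
miR-4466: gGGUGCGGgccggcgggg
miR-3181: aUCGGGCCcucggcgccgg
miR-1908-3p: cCGGCCGCcggcuccgccccg
miR-4677-3p: uCUGUGAGaccaaagaacuacu
miR-1271-5p: cUUGGCACcuagcaagcacuca
miR-1269b: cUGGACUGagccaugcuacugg
miR-3184-3p: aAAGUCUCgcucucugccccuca
miR-1285-3p: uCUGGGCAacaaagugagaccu
miR-3158-3p: aAGGGCUUccucucugcaggac
miR-4454: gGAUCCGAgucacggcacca
miR-3529-3p: aACAACAAaaucacuagucuucca
miR-1260b: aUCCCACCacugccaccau
miR-1260a: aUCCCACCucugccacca
miR-4261: aGGAAACAgggaccca
miR-1199-3p: uGCGGCCGgugcucaaccugc
miR-1292-3p: uCGCGCCCcggcucccguuc
miR-4463: gAGACUGGgguggggcc
The abundant and the rising sequences shown hold from 71.4% GC in miR-1199-3p to 95.2% in miR-1908-3p, except miR-4465 (54.5%) and miR-4261 (56.2%). Among all members higher under both scalings, shown or not, the sequences ran from 42.9% to 95.2% GC. The sequences of lower members run from 33.3% GC in miR-3529-3p to 65% in miR-4454.

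The miRNA libraries held from 723224 to 1029265 counts, of which at least 99.3% fell in the 1316 names tested, and all 225 members were tested. Replicates differed by more than counting noise, the lowest chi-square over its degrees of freedom being 1.85, and ERI2 siRNA replicates 1 and 2 stood furthest apart at 20.2. ERI2 mRNA, the siRNA target, had 1091, 1205 and 984 counts in the ERI2 siRNA RNA-seq libraries, against 1912, 2155 and 1562 in the control siRNA libraries. The log2 fold change was -0.70 (SE 0.0762), with an edgeR quasi-likelihood p of 0.000683 after Benjamini-Hochberg adjustment over all genes. The HEK293T markers PAX2, NEFL, NEFM and INA summed to between 45.5 and 53.3 CPM (counts per 1000000 counts of the library) in the ERI2 siRNA libraries, against 61.2 to 67.3 CPM in the control siRNA libraries. The neurofilament gene NEFL made up most of that sum, at 26.2 CPM on average in ERI2 siRNA and 35.6 CPM in control siRNA. The kidney factor gene PAX2 was low, at 1.06 CPM in ERI2 siRNA and 0.754 CPM in control siRNA. Keratinocyte, blood and fibroblast markers, 3 genes each, summed to at most 0.643 CPM in any library, with KRT5, TP63, CD3E and COL1A2 at 0 in all 6. The part of the marker difference in the miRNA results was not tested.

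The members took 32.8%, 36.4% and 34.1% of all miRNA counts in the ERI2 siRNA libraries, against 14.3%, 13.8% and 13.4% in the control siRNA libraries. Every ERI2 siRNA library lay far above every control siRNA library. The share averaged 34.4 ± 1.80% in ERI2 siRNA and 13.8 ± 0.437% in control siRNA (SD, n = 3 each), a ratio of 2.49. Members were chosen by counts summed over these same libraries, so the share and its ratio are a description and were not tested. The share was not recomputed without the 71 members that had under 150 counts in the ERI2 siRNA or the control siRNA libraries. Within a library, the binomial 95% interval of the share (Wilson score) was no wider than from 36.3% to 36.5% in ERI2 siRNA replicate 2. Such intervals cover counting error only. In bulk RNA, fewer cells of a type and less RNA per cell cannot be told apart.

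**Figure D1:**
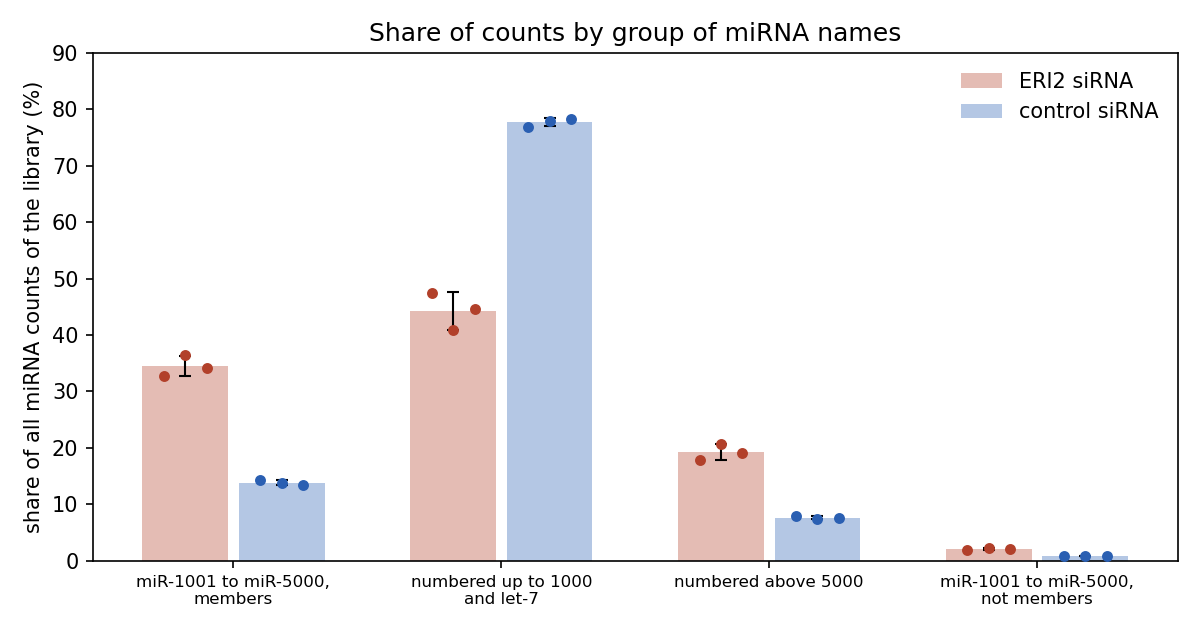
Share of all miRNA counts of a library (%, linear axis from 0) taken by 4 groups of names that together make up the table. Bars are means, error bars are SD over 3 libraries, and points are single libraries, with ERI2 siRNA in red on the left and control siRNA in blue on the right. The 225 members averaged 34.4% in ERI2 siRNA and 13.8% in control siRNA, while names numbered up to 1000 and let-7 averaged 44.3% in ERI2 siRNA and 77.7% in control siRNA.

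The other classes of name moved in the same libraries. Names numbered up to 1000 together with let-7, which include the abundant conserved families, took 44.3 ± 3.35% in ERI2 siRNA and 77.7 ± 0.696% in control siRNA. Names above 5000 took 19.2 ± 1.41% in ERI2 siRNA and 7.60 ± 0.270% in control siRNA, a ratio of 2.53, so a larger share was not tied to the members alone. Names of the range that stayed under 300 counts, with the numbers left out, took 2.05% in ERI2 siRNA and 0.828% in control siRNA. Shares of a library add up to 100%, so more of the members and less of the early-numbered names cannot be told apart from shares. Without counts of miR-10a-5p the member share was 38.3% in ERI2 siRNA and 18.4% in control siRNA. miR-4465 alone took 5.93% in ERI2 siRNA and 2.81% in control siRNA, and the other 224 members took 28.5% in ERI2 siRNA and 11.0% in control siRNA.

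Because the composition differed so much, the members' fold changes depended on the scaling. Total library size divides each count by the library's total. TMM (trimmed mean of M-values) sets each library so that the bulk of names, not of counts, centres near no change. Its factors ran from 1.45 to 1.63 in ERI2 siRNA libraries and from 0.639 to 0.677 in control siRNA libraries. The median log2 fold change over all 1316 tested names was 0.05 under TMM and 1.27 under total library size, a shift of 1.22. The members' median was 0.18 under TMM and 1.41 under total library size, so relative to all names it stood slightly higher under both.

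Under TMM, 53 of 225 members passed as higher in ERI2 siRNA (23.6%, against 11.1% of all tested names) and 36 as lower (16%, against 23.0% of all tested names), while 136 did not pass (edgeR quasi-likelihood test, adjusted p under 0.05 over all names). Under total library size, 205 passed as higher (91.1%, against 78.3% of all tested names) and 12 as lower (5.33%, against 13.6%). Among 147 names above 5000 with the same count minimum, 37 were higher and 14 lower under TMM. Under total library size 140 of these were higher and 2 lower. Among 213 names up to 1000 and let-7 with that minimum, 21 were higher and 133 lower under TMM. More higher calls than over all tested names were thus not particular to the members. The 53 members higher under TMM were also higher under total library size. The 12 lower under total library size were also lower under TMM. Of the other members lower under TMM, 16 turned to higher under total library size and 8 were not called, and the 136 not called under TMM were higher under total library size. The calls of all other members thus differed between the scalings.

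The count of 53 changed with the libraries used. Without control siRNA replicate 3 it was 20, without control siRNA replicate 1 it was 27, without control siRNA replicate 2 it was 33, without ERI2 siRNA replicate 3 it was 35, without ERI2 siRNA replicate 2 it was 39 and without ERI2 siRNA replicate 1 it was 52. Across 24 fits of the table, which varied the scaling, tool, filter, block and left-out library, 15 of the 53 passed in every one. So did 10 of the 12 (all but miR-3607-3p and miR-1261), and every one of the 53 and of the 12 kept its sign. Among those passing in every fit, miR-4664-3p and miR-3937 (higher) and miR-4677-3p and miR-3158-3p (lower) had under 150 counts in 1 group. Their calls are a description and are no support. When members were instead chosen by at least 150 counts in the control siRNA libraries alone, 156 names remained, with 45 higher and 33 lower under TMM. Of the 225 members, 71 had under 150 counts in one group and so reached 300 through the group where their counts were higher, which makes their values a description. The 154 members with at least 150 counts in each group were 45 higher (29.2%) and 31 lower (20.1%) under TMM, and 136 higher and 10 lower under total library size. Over all tested names, 11.1% were higher and 23.0% lower under TMM. Under total library size these shares were 78.3% and 13.6%.

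**Figure D2:**
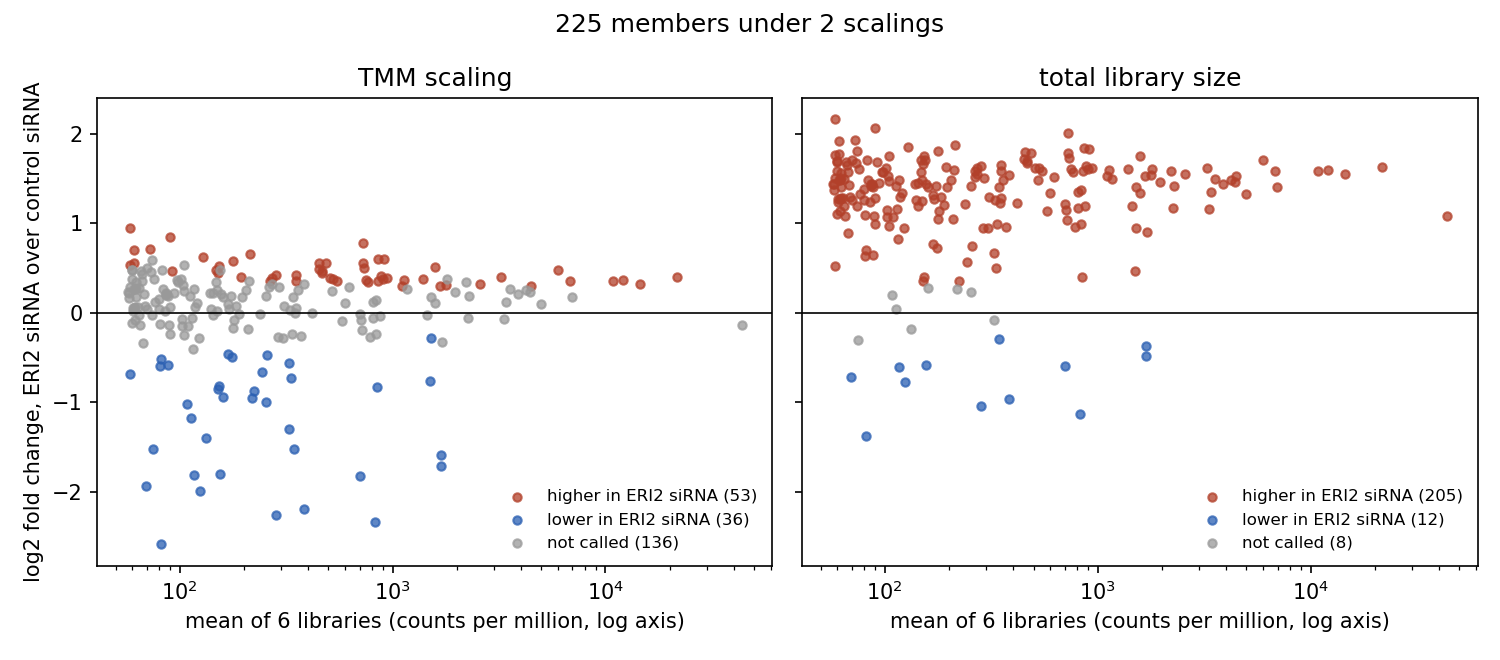
Log2 fold change of ERI2 siRNA over control siRNA for the 225 members (linear vertical axis) against their mean level over 6 libraries (CPM, log axis), with TMM scaling on the left and total library size on the right. Each point is a member, coloured by its call. Under TMM 53 were higher and 36 lower, and under total library size 205 were higher and 12 lower, with the cloud shifted upward as a whole.

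In CPM of total counts, without any model, the 3 ERI2 siRNA libraries all exceeded the 3 control siRNA libraries for 203 members and all lay under them for 13, against 76.3% and 14.1% of all tested names. In TMM-scaled CPM the same held for 84 and 45 members, against 21.5% and 26.0% of all tested names. The ratio of mean CPM of total counts, ERI2 siRNA over control siRNA, had a median of 2.66 over members and ran from 0.379 for miR-4677-3p to 4.44 for miR-4261.

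A few abundant members held most of the members' counts, the 10 highest together 55.0%. miR-4465, whose seed UCAAGUA is that of the conserved miR-26 family, was the highest, at 61717, 56491 and 59577 CPM of total counts in ERI2 siRNA libraries, against 29715, 28070 and 26374 CPM in control siRNA libraries. It ranked 3 among all names in ERI2 siRNA and 5 in control siRNA. Its log2 fold change was -0.14 under TMM (edgeR adjusted p = 0.422) and 1.08 under total library size (adjusted p = 7.49e-12), so the scaling decided its call. miR-26a-5p (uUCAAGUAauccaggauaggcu), a conserved family member with that seed, averaged 5926 CPM in ERI2 siRNA and 13312 CPM in control siRNA, with log2 fold changes of -2.38 under TMM and -1.16 under total library size. Names with one seed thus stood on opposite sides in CPM of total counts: miR-4465 was higher in the 3 ERI2 siRNA libraries and miR-26a-5p averaged lower.

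miR-3195 was the second most abundant member, at 31417, 34288 and 32735 CPM of total counts in ERI2 siRNA libraries, against 11067, 10678 and 10199 CPM in control siRNA libraries. Its groups were far apart, and it rose under both scalings, by 0.40 under TMM (SE 0.105, edgeR adjusted p = 0.00896) and by 1.63 under total library size. Of the 10 most abundant members, miR-3195, miR-4634, miR-4466, miR-3181, miR-4516, miR-1908-3p and miR-4665-3p passed as higher under both, with TMM log2 fold changes from 0.30 for miR-4665-3p to 0.48 for miR-1908-3p. miR-4745-3p (0.17, edgeR adjusted p = 0.287) and miR-4449 (0.10, adjusted p = 0.488) did not pass under TMM and were higher under total library size. The TMM rises of miR-3195, miR-4634, miR-4466, miR-3181, miR-4516 and miR-4665-3p all lost their call without control siRNA replicate 3, with edgeR adjusted p from 0.0678 to 0.158. Without ERI2 siRNA replicate 3 all of these but miR-4516 lost it (adjusted p from 0.0541 to 0.154). miR-4634, miR-3181, miR-4516 and miR-4665-3p lost it without control siRNA replicate 1, miR-4634, miR-4516 and miR-4665-3p without control siRNA replicate 2, miR-4634 without ERI2 siRNA replicate 1 and miR-4665-3p without ERI2 siRNA replicate 2 (adjusted p from 0.0547 to 0.136). miR-1908-3p, cut from a hairpin in the fatty acid desaturase gene FADS1, had 9269, 7254 and 8141 counts in ERI2 siRNA libraries, against 2364, 2147 and 1938 in control siRNA libraries, and passed in every fit.

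The members also moved up the order of abundance. Among the 50 names with the highest mean CPM, 20 were members in ERI2 siRNA and 9 in control siRNA. At least 1000 CPM of total counts was reached by 55 members in ERI2 siRNA and by 28 in control siRNA. miR-1199-5p, named after its values were seen, ranked 35 in ERI2 siRNA and 60 in control siRNA.

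Members higher under both scalings had TMM log2 fold changes of at most 0.95. miR-4261 had 98, 55 and 109 counts in ERI2 siRNA libraries, against 16, 16 and 17 in control siRNA libraries. It reached 300 counts only through the ERI2 siRNA libraries, with 262 counts there and 49 in control siRNA, so its log2 fold changes of 0.95 under TMM and 2.16 under total library size are a description. miR-1199-3p had 1089, 916 and 1141 counts in ERI2 siRNA libraries, against 237, 216 and 216 in control siRNA libraries. It had the smallest p among members higher under TMM, with a log2 fold change of 0.78 under TMM (SE 0.104, edgeR adjusted p = 3.33e-05) and 2.01 under total library size.

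miR-1292-3p, from a hairpin inside NOP56, a core protein of box C/D small nucleolar ribonucleoproteins, averaged 1425 ± 89.3 CPM of total counts in ERI2 siRNA and 401 ± 28.8 CPM in control siRNA (SD, n = 3 each). miR-4463 averaged 1341 ± 209 CPM in ERI2 siRNA and 376 ± 1.29 CPM in control siRNA. Their TMM log2 fold changes were close, 0.61 for miR-1292-3p (edgeR adjusted p = 0.000519) and 0.60 for miR-4463 (adjusted p = 0.000577), and both passed in every fit. Of the remaining members with large positive values, miR-1266-5p had a TMM log2 fold change of 0.66. miR-4664-3p (0.85), miR-3937 (0.72), miR-3972 (0.71) and miR-1233-5p (0.63) had only 80, 69, 58 and 128 counts in the control siRNA libraries together, in that order, and their values are a description for the same reason as miR-4261.

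**Figure D3:**
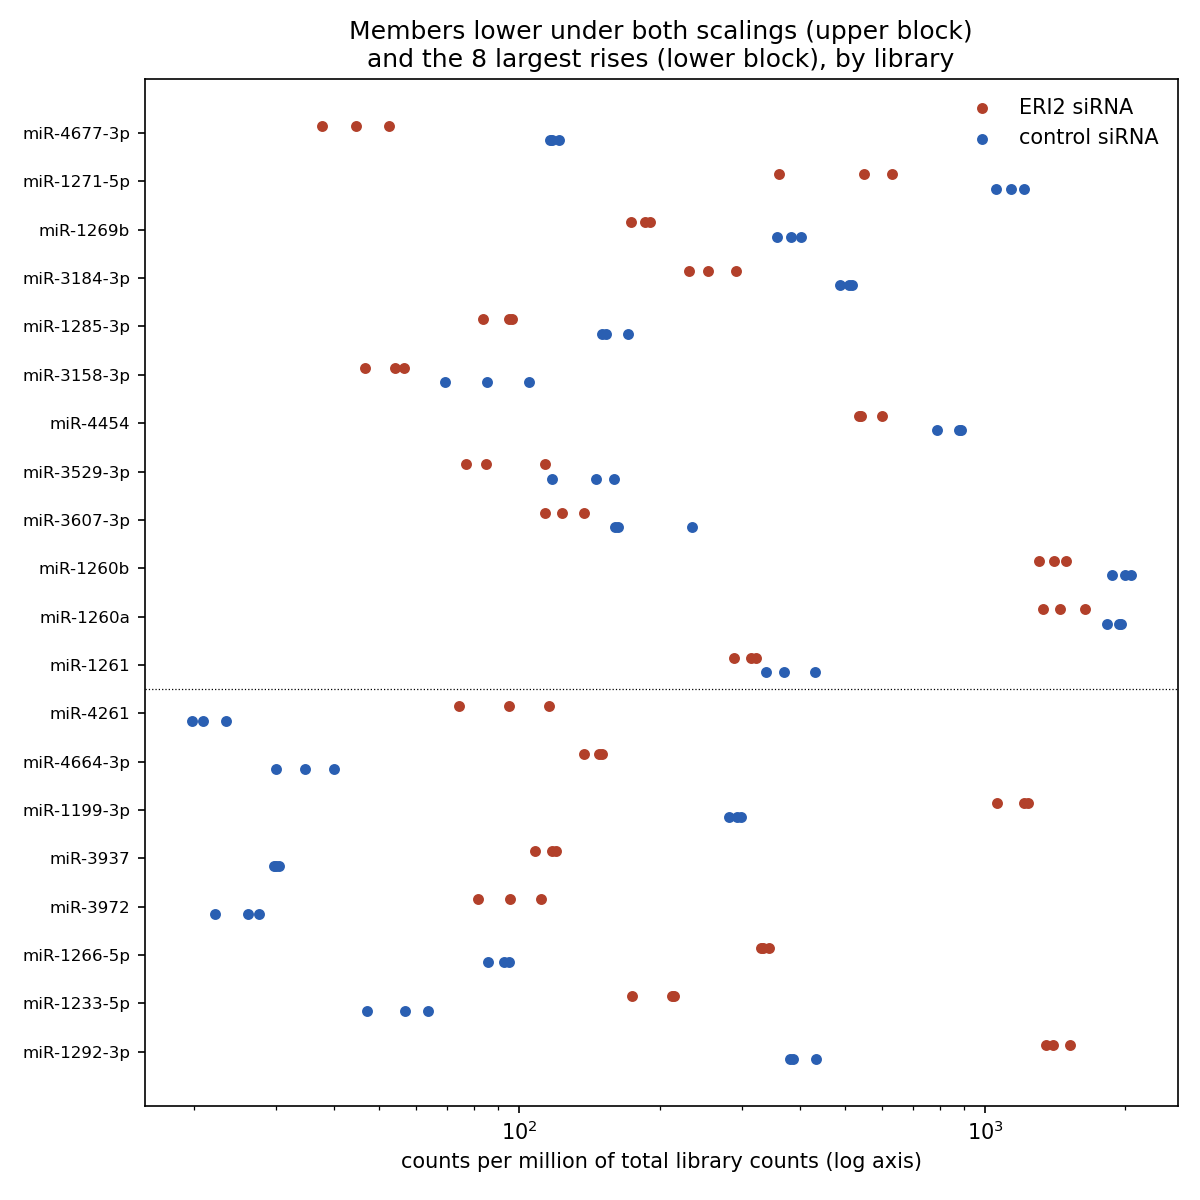
Level by library (CPM of total counts, log axis) of the 12 members lower under both scalings (upper block) and the 8 largest log2 fold changes among members higher under TMM (lower block). Each point is 1 library, with ERI2 siRNA in red above control siRNA in blue within each row. miR-4677-3p lay between 37.7 and 52.5 in ERI2 siRNA and between 116 and 121 in control siRNA, and miR-1199-3p between 1058 and 1235 in ERI2 siRNA and between 282 and 299 in control siRNA.

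Falls were fewer and larger than rises under TMM. miR-4677-3p, from a hairpin in the centrosomal gene SDCCAG8, had 54, 28 and 42 counts in ERI2 siRNA libraries, against 94, 93 and 85 in control siRNA libraries. The groups did not overlap, and its log2 fold change was -2.59 under TMM and -1.37 under total library size. Its 124 counts in ERI2 siRNA against 272 in control siRNA reached 300 through the control siRNA libraries, so these values are a description. The SDCCAG8 mRNA had a log2 fold change of 0.05 in RNA-seq (edgeR adjusted p = 0.696).

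miR-1271-5p, which shares the seed UUGGCAC with the conserved miR-96-5p, had 651, 268 and 518 counts in ERI2 siRNA libraries, against 981, 809 and 822 in control siRNA libraries. Replicate 2 was the lowest of the ERI2 siRNA libraries, and all 3 lay under the control siRNA libraries. It fell by 2.34 under TMM (SE 0.189, edgeR adjusted p = 1.71e-07) and by 1.13 under total library size. miR-96-5p (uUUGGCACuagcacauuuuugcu), a sensory-cell miRNA and no member, had a log2 fold change of -2.39 under TMM and -1.18 under total library size.

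miR-1269b had 192, 129 and 180 counts in ERI2 siRNA libraries, against 326, 273 and 277 in control siRNA libraries. Its groups were apart in CPM as well, at 184 ± 8.79 CPM in ERI2 siRNA and 381 ± 23.4 CPM in control siRNA (SD, n = 3 each). It fell by 2.26 under TMM (edgeR adjusted p = 9.49e-09) and by 1.04 under total library size.

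miR-3184-3p lies on chromosome 17 of GRCh38.p14, and its 23 bases are the exact reverse complement of miR-423-5p (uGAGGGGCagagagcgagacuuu). It had 262, 217 and 218 counts in ERI2 siRNA libraries, against 395, 396 and 369 in control siRNA libraries. It fell by 2.19 under TMM (SE 0.117, edgeR adjusted p = 9.49e-09) and by 0.96 under total library size. miR-423-5p, the broadly expressed partner and no member, averaged 258 CPM in ERI2 siRNA and 532 CPM in control siRNA, with log2 fold changes of -2.26 and -1.03 under the same scalings. No source used here gives the strand setting of the counting, so reads of these names cannot be told apart by strand.

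The remaining falls among the 8 largest were miR-1285-3p, whose log2 fold change was -2.00 under TMM and -0.78 under total library size, miR-3158-3p (-1.94 and -0.72, a description with 141 counts in ERI2 siRNA and 198 in control siRNA), miR-4454 (-1.82 and -0.60) and miR-3529-3p (-1.82 and -0.61). miR-4454 had 619, 402 and 507 counts in ERI2 siRNA libraries, against 719, 672 and 570 in control siRNA libraries. The CPM of total counts of miR-3529-3p came close between groups, with 114 CPM as the highest ERI2 siRNA library and 118 CPM as the lowest control siRNA library. The unknown strand setting applies to miR-3529-3p as well, and its counts were not set against a name on the opposite strand. miR-3607-3p, miR-1260b, miR-1260a and miR-1261 completed the 12 lower under both scalings. miR-1261 was the weakest of them under total library size, with a log2 fold change of -0.30 (edgeR adjusted p = 0.0418).

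Members were also grouped by what their genes are known to overlap, in classes set by number. Their counts are to be read against all tested names, of which 11.1% were higher and 23.0% lower under TMM, and 78.3% higher and 13.6% lower under total library size. The 3 tRNA-like members, miR-4454, miR-1260b and miR-1260a, all fell under both scalings. miR-1260a and miR-1260b have near-identical sequences and one seed, so their counts may share reads. miR-1260b had 1533, 968 and 1328 counts in ERI2 siRNA libraries, against 1659, 1526 and 1352 in control siRNA libraries, and fell by 1.71 under TMM (edgeR adjusted p = 2.87e-08) and by 0.49 under total library size. miR-1260a fell by 1.59 under TMM and by 0.37 under total library size.

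Of the 8 members that overlap Alu or other repeats, 7 were lower under TMM, with a median log2 fold change of -0.89, but only miR-1285-3p was lower under total library size, where 4 were higher and the median was 0.34. miR-1273g-3p shows this switch, at 956 ± 20.1 CPM of total counts in ERI2 siRNA and 727 ± 18.4 CPM in control siRNA (SD, n = 3 each), with a log2 fold change of -0.83 under TMM (edgeR adjusted p = 1.35e-05) and 0.40 under total library size (adjusted p = 0.00281). miR-1304-3p was lower under TMM (-1.40) and not called under total library size (-0.18, edgeR adjusted p = 0.296). The 9 members from hairpins conserved in other mammals were 5 lower and 1 higher under TMM, and 1 lower and 7 higher under total library size. miR-1271-5p was the one lower under both. miR-1307-5p (-0.76 under TMM and 0.47 under total library size) switched sides, and miR-1296-5p (-1.18 and 0.04) was not called under total library size.

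The 5 mirtron members, cut from short introns by splicing in place of Drosha, were 1 higher and none lower under TMM and 5 higher under total library size. The one was miR-1233-5p (0.63 under TMM, described above), while miR-1233-3p from the other arm had 0.22 (edgeR adjusted p = 0.342). Among the 3 members from small nucleolar RNA genes, miR-3607-3p fell under both (-1.80 and -0.58), while miR-1291 (0.07 and 1.29) and miR-3651 (-0.03 and 1.20) passed under total library size alone. miR-4485-3p, which matches mitochondrial ribosomal RNA, had -0.09 under TMM (edgeR adjusted p = 0.601) and 1.15 under total library size. The other 196 members were 51 higher and 20 lower under TMM, with a median of 0.21, and 186 higher and 6 lower under total library size. For comparison, the median over all tested names was 0.05 under TMM and 1.27 under total library size.

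The base composition of the mature sequences ran with the fold change. The 196 members with a sequence had a median GC content of 70%, against 59.1% over the 1157 tested names with one, and were 16 to 26 bases long with a median of 22. The 151 members of at least 60% GC had a median log2 fold change of 0.23 under TMM, with 45 higher and 13 lower, and 1.47 under total library size, with 148 higher and 2 lower. The 45 members under 60% GC had a median of -0.12 under TMM, with 3 higher and 18 lower, and 1.09 under total library size, with 31 higher and 9 lower. Over all tested names, 11.1% were higher and 23.0% lower under TMM, and 78.3% higher and 13.6% lower under total library size.

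The 48 sequenced members that rose under both scalings had a median GC content of 75.6%, and the 11 that fell under both had 56.5%. Across the 196 members, Pearson's r between GC content and TMM log2 fold change was 0.43 and Spearman's rho 0.37, given as a description since the members share the same libraries. The tested names that are not members showed the same order, with medians of 0.20 for 409 names of at least 60% GC and -0.17 for 552 names under 60% GC under TMM. GC content was not used to choose the members, and its part in the result was not tested.

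**Figure D4:**
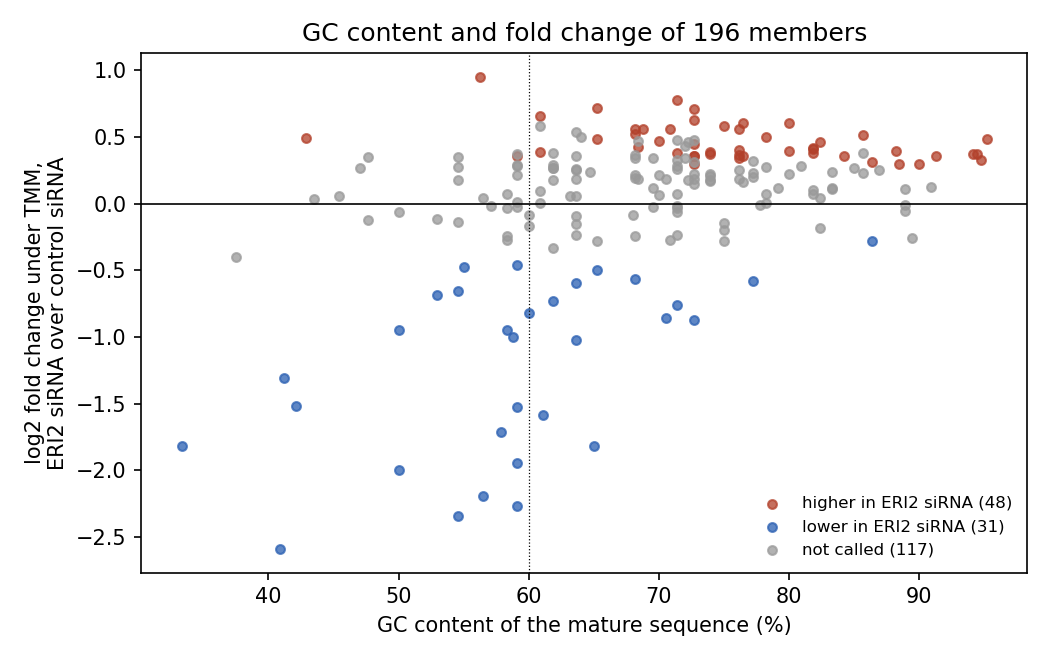
Log2 fold change of ERI2 siRNA over control siRNA under TMM (linear axis) against the GC content of the mature sequence (%), for the 196 members with a RefSeq sequence. Each point is a member coloured by its TMM call, and the dotted line marks 60%. Of the members under 60%, 3 were higher and 18 lower, and of the members at or over 60%, 45 were higher and 13 lower (31 and 148 were higher under total library size).

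Few members shared a seed. The 196 sequences held 190 different seeds, and 12 members shared 6 of them in pairs. They are shown so that the pairs can be set side by side, with seeds in capitals.
miR-3183: gCCUCUCUcggagucgcucgga
miR-4723-3p: cCCUCUCUggcuccuccccaaa
miR-3187-5p: cCUGGGCAgcguguggcugaagg
miR-3180-3p: uGGGGCGGagcuuccggaggcc
miR-3196: cGGGGCGGcaggggccuc
miR-1587: uUGGGCUGggcuggguuggg
miR-3620-5p: gUGGGCUGggcugggcugggcc
miR-1275: gUGGGGGAgaggcuguc
miR-4665-5p: cUGGGGGAcgcgugagcgcgagc
miR-3187-5p pairs with miR-1285-3p, printed with the falls, and the sixth pair is miR-1260a and miR-1260b. Some pairs had close values and others lay apart, and no difference between partners was tested. miR-1285-3p had a log2 fold change of -2.00 under TMM and -0.78 under total library size, whereas miR-3187-5p had -0.03 and 1.20. miR-1275 was lower under TMM (-0.86, edgeR adjusted p = 0.00314) and higher under total library size (0.36, adjusted p = 0.0421), while miR-4665-5p had 0.27 and 1.49. The pair of miR-1587 (0.06 and 1.28) and miR-3620-5p (0.07 and 1.29) and the pair of miR-3180-3p (0.20 and 1.42) and miR-3196 (-0.06 and 1.17) did not pass under TMM. miR-3183 passed as higher (0.52, edgeR adjusted p = 0.0447) under TMM and miR-4723-3p did not (-0.09, adjusted p = 0.685). DESeq2 and limma-voom did not call miR-3183, and neither did edgeR without ERI2 siRNA replicate 1 or 2 or any one control siRNA replicate (adjusted p from 0.0566 to 0.186).

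The ratio of the 5p to the 3p product within a library does not depend on scaling. Both arms were members for 36 hairpins, of which 18 had more 3p and 13 more 5p counts in every library. The ratio overlapped between groups for 25 hairpins, was higher in all 3 ERI2 siRNA libraries for 5 and lower for 6 (13.9% and 16.7%), and the median absolute difference was 0.26 on the log2 scale. Over all 297 hairpins with both arms tested and counted in every library, the ratio was higher without overlap for 13.5% and lower for 21.5%. The shares among members were thus near or under those over all hairpins, and no test was run on these ratios.

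miR-1285 had the largest difference: the log2 ratio of 5p to 3p was 0.26, 0.62 and 0.34 in ERI2 siRNA libraries, against -1.46, -1.64 and -1.31 in control siRNA libraries. The 5p product was thus the more counted arm in each ERI2 siRNA library and the less counted in each control siRNA library. miR-3184 followed, with a mean log2 ratio of -0.13 ± 0.241 in ERI2 siRNA and -1.35 ± 0.0552 in control siRNA (SD, n = 3 each), where both arms lie opposite an arm of miR-423. At the other end miR-3944 had log2 ratios of -1.83, -1.75 and -1.81 in ERI2 siRNA libraries, against -0.71, -0.90 and -0.48 in control siRNA libraries. The ratio was also lower in all 3 ERI2 siRNA libraries for miR-4746 (a difference of -0.87), miR-1292 (-0.69), miR-4687 (-0.58), miR-1199 (-0.51) and miR-4787 (-0.38). The ratios of miR-1285, miR-1292 and miR-4687 are likewise a description. In control siRNA miR-1285-5p had only 131 counts, miR-1292-5p 88 and miR-4687-3p 90. The same holds for miR-1301, miR-3180 and miR-4690, whose ratios were higher in all 3 ERI2 siRNA libraries. Their counts in control siRNA were 71 for miR-1301-5p, 74 for miR-3180-5p, 108 for miR-3180-3p, 72 for miR-4690-5p and 138 for miR-4690-3p.

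**Figure D5:**
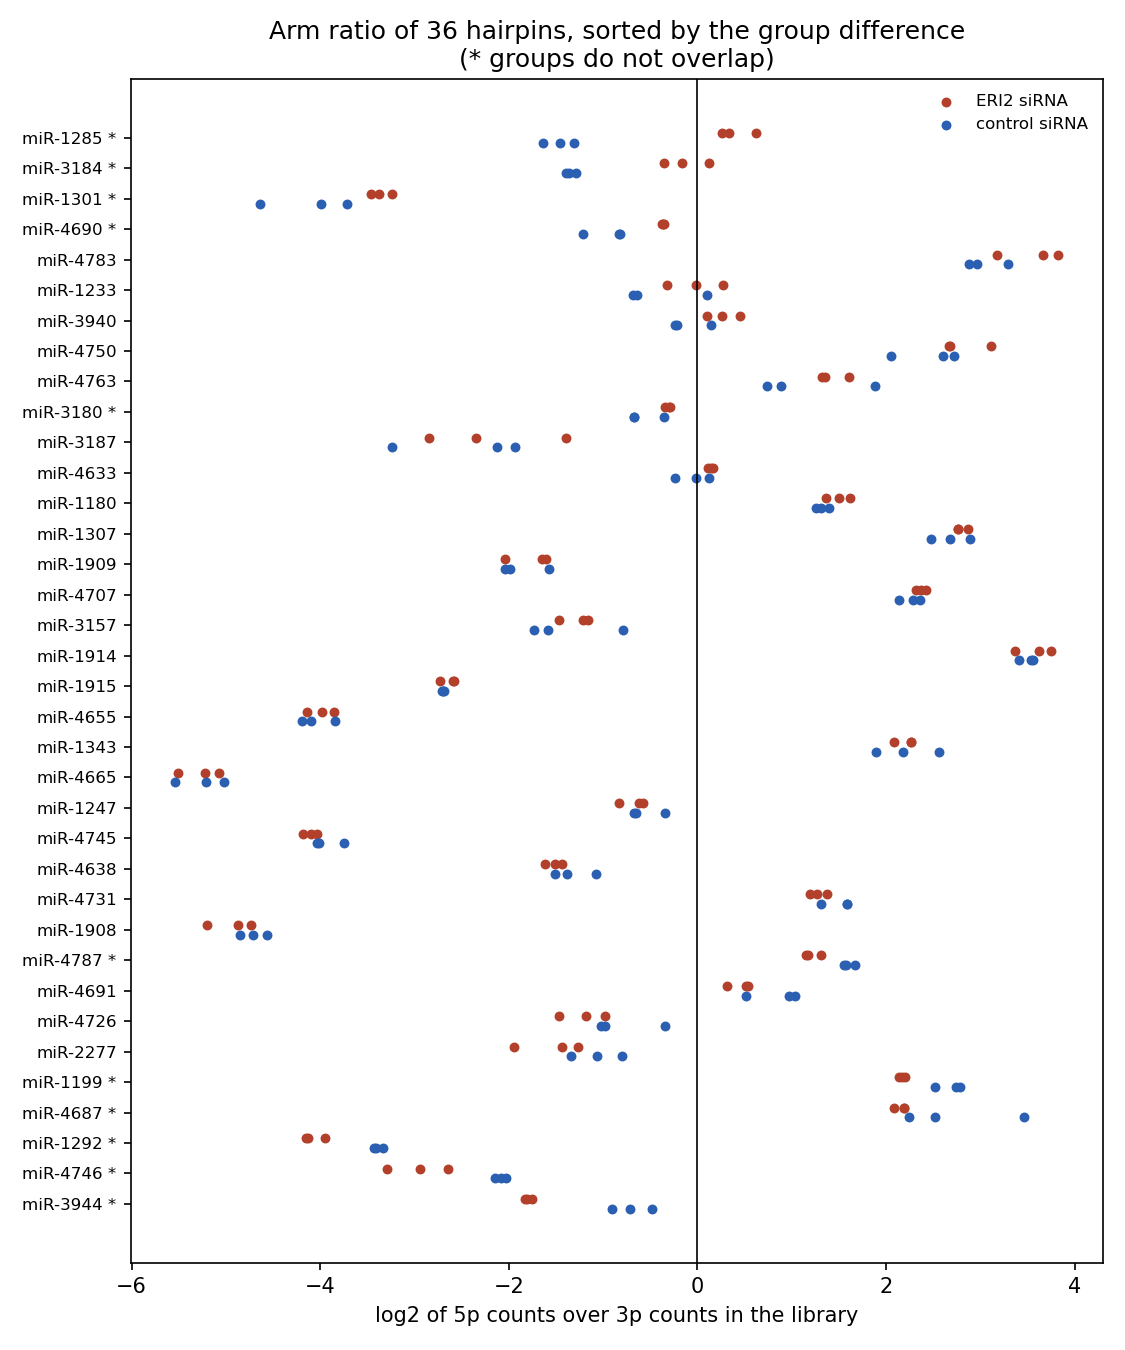
Log2 of 5p counts over 3p counts within each library (linear axis) for the 36 hairpins whose arms are both members, sorted by the difference between groups. Each point is 1 library, with ERI2 siRNA in red above control siRNA in blue within each row, and a star marks hairpins whose groups do not overlap. The difference ran from 1.87 for miR-1285 to -1.10 for miR-3944, and 25 hairpins overlapped.

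RNA-seq gave another readout of the genes that hold the members. By RefSeq annotation 106 members lie inside a gene on the same strand, in 85 host genes, of which 73 were tested in RNA-seq. Under TMM 6 host genes were higher in ERI2 siRNA and 3 lower, or 8.22% and 4.11%, against 4.29% and 4.25% of all 18843 genes tested. The host median log2 fold change was 0.08, against 0.003 over all genes. Under total library size 10 were higher and 2 lower, against 5.18% and 2.46% of all genes tested. Without ERI2 siRNA replicate 2 or replicate 3, 1 was higher and 1 lower.

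CAPN15, a calpain-family protease that hosts miR-3176, had 1546, 2050 and 2052 counts in ERI2 siRNA libraries, against 1267, 1084 and 1045 in control siRNA libraries. It rose by 0.80 in log2 units under TMM (SE 0.115, edgeR adjusted p = 0.00267), and miR-3176 itself had 0.43 in the miRNA table. The other hosts that rose were AMH (1.13), the hormone that regresses the Müllerian duct and host of miR-4321, MAPK8IP3 (0.48), a scaffold of JNK signalling, REXO1 (0.42), an exonuclease-family gene, RABL6 (0.34), a Rab-like GTPase, and UHRF1 (0.30), which binds hemimethylated DNA. MAPK8IP3 did not pass under total library size (edgeR adjusted p = 0.104).

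PMP22, a peripheral myelin protein gene that hosts miR-4731, had 415, 354 and 353 counts in ERI2 siRNA libraries, against 650, 633 and 521 in control siRNA libraries. It fell by 0.61 in log2 units under TMM (SE 0.105, edgeR adjusted p = 0.00607), while miR-4731-5p had 0.26 under TMM. ISOC1 (-0.50) and ABR (-0.29) were the other hosts that fell under TMM, and ABR did not pass under total library size (edgeR adjusted p = 0.0623). miR-4633-3p, hosted by ISOC1, had -0.66 under TMM and 0.57 under total library size, and miR-3183, hosted by ABR, had 0.52 and 1.75.

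Hairpin genes themselves were barely read by RNA-seq. Of 158 MIR gene rows of members in the RNA-seq table, 84 were at 0 in all 6 libraries and 11 were tested. MIR4746 was the one called, with 24, 27 and 34 counts in ERI2 siRNA libraries, against 12, 6 and 6 in control siRNA libraries (log2 fold change 1.89, SE 0.396, edgeR adjusted p = 0.0128), and its call was lost without ERI2 siRNA replicate 3, control siRNA replicate 2 or control siRNA replicate 3. Its mature products had log2 fold changes of -0.50 for the 5p arm (edgeR adjusted p = 0.0169) and 0.36 for the 3p arm (adjusted p = 0.0169) under TMM, and 0.72 and 1.59 under total library size.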

How the data were processed

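miRNA-seq and RNA-seq were analysed for 3 ERI2 siRNA and 3 control siRNA libraries per assay. The authors deposited raw counts per mature miRNA name and raw counts per gene, whole numbers with unequal totals. The submitters' processing notes name TopHat2 2.0.10, HTSeq 0.6.1p1, CASAVA 1.8.2 and build hg19, with no role stated. No source used here gives the strand setting, the miRNA aligner, the small RNA kit or the release of miRNA names. Counts were filtered (filterByExpr), scaled by TMM or total library size and tested over all names, separately per assay, by robust quasi-likelihood F-tests in edgeR 4.0.16 under R 4.3.3. Calls needed a p under 0.05 after Benjamini-Hochberg adjustment. A ± is an SD over 3 libraries. The alternatives were DESeq2 1.42.0, limma-voom 3.58.1, other scalings and filters, a replicate block and leaving out libraries. Choosing members on 1 group, and total library size combined with a block, limma-voom or a left-out library, were added after seeing the data. The members and lists were chosen with earlier results of these data known. Named members were the 10 most abundant, the 8 largest rises and falls with groups apart, the 3 smallest p-values each way, up to 3 per class, shared seeds and those at the count minimum. Mature sequences and host genes came from RefSeq GRCh38.p14 by name.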

Additional observations from a re-analysis of the deposited data

How the results depend on the processing

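Of 765 values recomputed for 51 named members over 15 alternatives, 673 kept their direction and their side of the threshold, 39 lost the call, 23 gained one and 30 changed sign. ERI2 mRNA kept its direction and call under every alternative run. RLE size factors, DESeq2, limma-voom, a filter at 10 CPM in 3 libraries and leaving miR-10a-5p out moved no count of members by over 1.5 times. Total library size gave 205 members higher and 12 lower, with a median of 1.41, and over all names 1031 higher and 179 lower. The upper quartile gave 161 higher and 23 lower, a median of 0.65, and 580 higher over all names. With no count filter the member median was 0.30 and 223 names were higher. An adjusted p under 0.01 left 20 members and 58 names higher. Members of at least 1000 counts gave 18 lower and a median of 0.23. Members chosen on the control libraries had a median of 0.12. Leaving out a library gave from 20 to 52 members higher, from 74 to 146 names higher and a median from 0.13 to 0.19. Without miR-4465 the share differed by 17.5 percentage points. The cause of these changes was not tested.

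Log2 fold changes of named members that were negative under TMM turned positive under total library size for miR-4465 (1.08), miR-1273g-3p (0.40), miR-1296-5p (0.039), miR-1307-5p (0.47), miR-4485-3p (1.15), miR-3651 (1.20), miR-4723-3p (1.13), miR-3187-5p (1.20), miR-3196 (1.17), miR-1275 (0.36) and miR-4443 (0.53). The upper quartile did the same for miR-4465 (0.32), miR-4485-3p (0.38), miR-3651 (0.43), miR-4723-3p (0.37), miR-3187-5p (0.43) and miR-3196 (0.41). With no count filter it held for miR-4485-3p (0.029), miR-3651 (0.080), miR-4723-3p (0.022), miR-3187-5p (0.084) and miR-3196 (0.055). Leaving out libraries took members near 0 across it: miR-1291 ran from -0.17 to 0.21, miR-4723-3p from -0.26 to 0.10, miR-3187-5p from -0.25 to 0.16, miR-1587 from -0.00162 to 0.11 and miR-3620-5p from -0.10 to 0.21. None of these 5 passed under TMM in edgeR with all libraries.

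Host genes called were few and unstable: 10 were higher under total library size, 5 were lower in DESeq2 and 5 with no count filter, and 1 was higher and 1 lower at an adjusted p under 0.01. Without a library they ran from 1 to 11 higher and from 1 to 4 lower. MIR4746 was the one MIR row called in edgeR, and 1 MIR row was called higher in DESeq2 and in limma-voom. With a filter of 1 CPM in 3 libraries and at an adjusted p under 0.01, 0 were called higher. The same held without 3 of the libraries, where the range was 0 to 1. In the main fit 3 MIR rows had an unadjusted p under 0.05.

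The labels do not say that replicate numbers pair libraries, so the main fit had no block. Libraries with the same replicate number did not deviate together, with correlations of -0.15, -0.06 and 0.00. With the replicate number as a block 38 members were higher and 35 lower in place of 53 and 36, and 203 and 11 under total library size. With that block 1 host gene was higher and 1 lower, and 0 MIR rows were called higher.

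Members near 300 counts held as few as 15 counts in a library, so a fold change of theirs rests on few reads. With 3 libraries a group, an exact test of a single value cannot go below 0.1.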
